A study of Bos indicus with 5 samples.

Results

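Microtubules are hollow fibres built from pairs of alpha and beta tubulin. The transcripts of the tubulins, and of the enzymes and proteins that fold, modify and bind them, were examined in the bovine ampulla. The ampulla is the wide section of the oviduct where fertilization takes place. Members were taken by gene symbol alone, from the alpha, beta, gamma, delta and epsilon tubulins, the gamma-tubulin complex proteins (TUBGCP), the tubulin tyrosine ligase-like enzymes (TTLL), the tubulin folding cofactors (TBCA to TBCE), the TPPP family, the acetylation enzymes ATAT1 and HDAC6, the deglutamylases (AGTPBP1 and AGBL) and the stathmins (STMN). This gave 55 of the 24616 genes in the table.

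The study asked how the hormonal setting around ovulation changes gene expression in the oviduct of multiparous Nelore cows (Bos indicus). All cows were first pre-synchronized with a GnRH agonist and then a prostaglandin F2alpha analog (0.5 mg of cloprostenol). On day -10 they received an intravaginal progesterone device (1 g) and 2 mg of estradiol benzoate. The prostaglandin analog was given at device removal and again 6 h later, and a GnRH agonist on day 0 to induce ovulation. Cows of the LF/LCL group, named for a large follicle and corpus luteum (2 libraries), had the device removed 42 h before GnRH and were given prostaglandin once more, when the device was placed. Cows of the SF/SCL group, named for a small follicle and corpus luteum (3 libraries), had it removed 30 h before GnRH. Ampulla was collected on day 4 and each library came from another cow. The sequenced cows had been picked by the study from the far ends of its ranking, so they were not a random draw from each group. Another LF/LCL ampulla sample was discarded by the study because its library was of inadequate quality and gave few reads. Expression is given as the normalized read count, which is the number of reads of a gene divided by a size factor of the library, and, as it is not scaled by gene length, it does not rank genes by level. Ratios of 2 genes are given only to compare libraries.

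In the oviduct, microtubules form the axoneme, the moving core of each cilium on ciliated epithelial cells, and the cytoskeleton and mitotic spindle of every cell type. Cells draw on several alpha and beta tubulin genes. The tubulins in cilia are altered after assembly. Many, but not all, TTLL proteins attach chains of glutamate or glycine to tubulin tails, and deglutamylases take glutamate off again. ATAT1 adds an acetyl group to alpha tubulin and HDAC6 removes it.

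The libraries held between 13418278 and 19592174 reads assigned to genes, and every pair of libraries differed beyond sampling noise. Of the cell type marker lists, the summed level of 25 ciliated cell markers was 69065 to 87098 normalized reads in LF/LCL and 101871 to 107504 in SF/SCL, with no overlap. Only PIFO of these markers was at 0 in some libraries. FOXJ1, the transcription factor that switches on the motile cilium program, was present at 8482 to 12698 normalized reads. Summed smooth muscle markers were 65504 to 126702 in LF/LCL and 17523 to 43586 in SF/SCL, summed proliferation markers 1078 to 1738 and 863 to 956, and summed Schwann cell markers 27913 to 35976 and 9802 to 20034. LF/LCL replicate 1 had the lowest ciliated and the highest smooth muscle sum of the 5 libraries. SF/SCL replicate 3 had the lowest smooth muscle sum (17523). The samples held the full thickness of the oviduct wall, and normalized reads are relative to the rest of the library. In such bulk tissue, fewer cells of a type cannot be told apart from less RNA per cell or from a larger share of other tissue.

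Of the 55 members, 52 had a mean above 5 normalized reads and entered the test. The alpha-tubulin-like gene TUBAL3 had a mean of 0.933, STMN4 had reads in SF/SCL replicate 1 alone (1.04 normalized reads), and TTLL2, a TTLL enzyme, had no reads. A mean of at least 1000 normalized reads over the 5 libraries was reached by 15 members, and 40 lay under it.

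**Figure D1:**
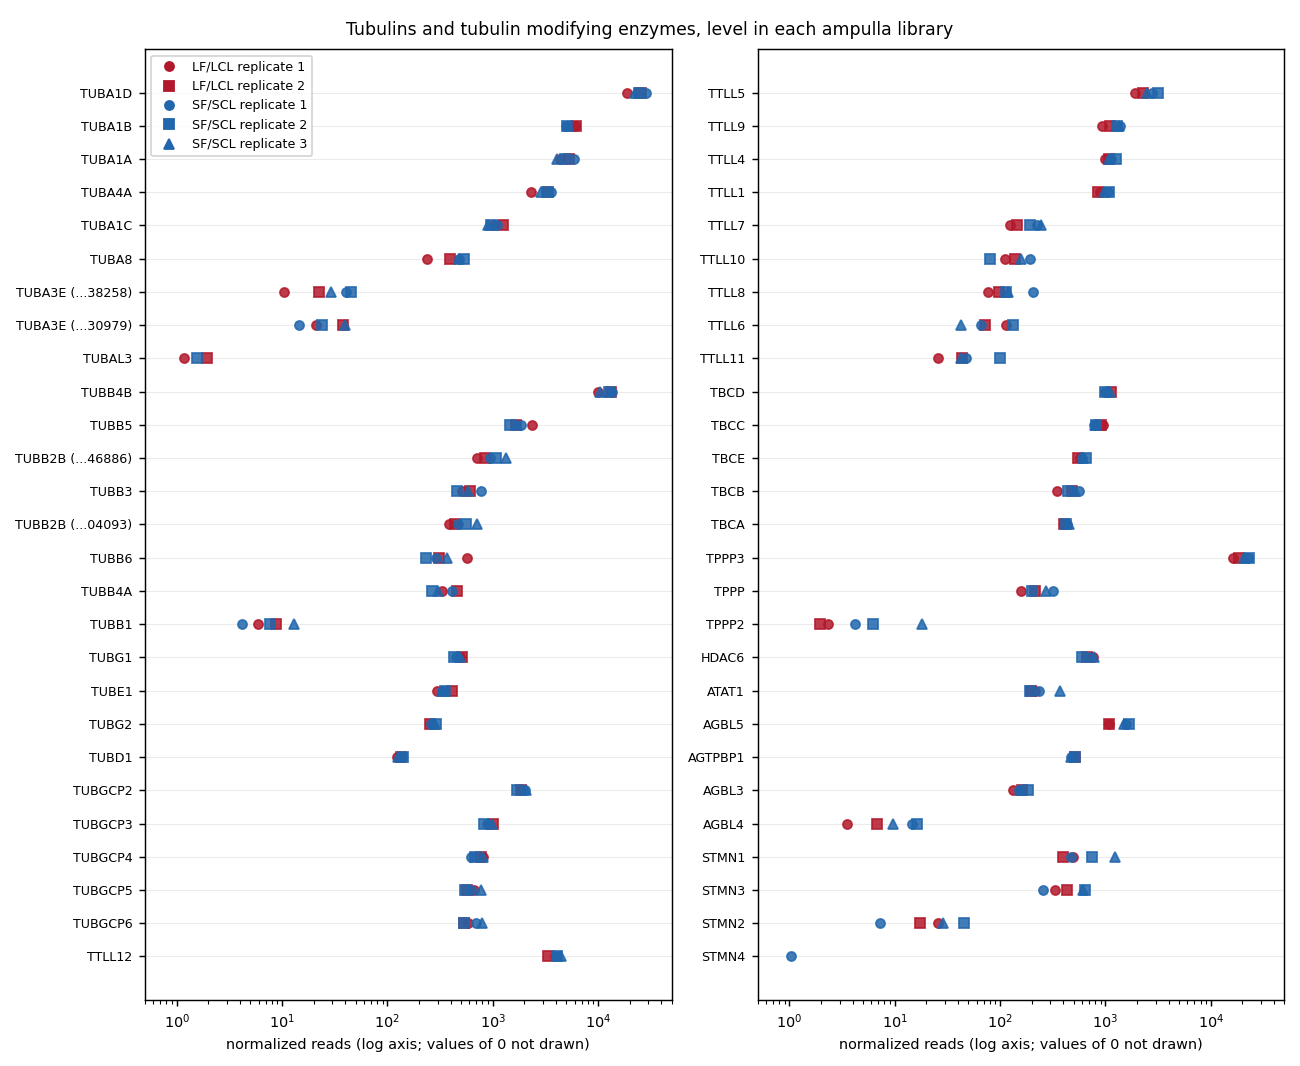
Normalized reads (horizontal log axis) of the 54 members with any read, one marker per ampulla library, red for LF/LCL and blue for SF/SCL. Values are not scaled by gene length, and the 5 libraries lie close together for most members, while TUBA3E, TPPP2, AGBL4 and STMN2 spread widely at low values.

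The comparison between groups asked whether any member differed by treatment. No member had an adjusted p under 0.05 in limma, with the smallest value for AGBL5 (0.203), and 0% of the 15815 genes tested did. The edgeR quasi-likelihood test and limma-voom on the recovered reads also called no member. At an unadjusted p under 0.05 there were 9 of 52 members (17.3%) against 11.5% of all genes. The count was 9 in the quasi-likelihood test (11.7% of all genes), 8 in limma-voom (11.2%), 10 in DESeq2 (12.7%) and 9 in the edgeR exact test (11.1%). Of the 9 in limma, 8 were higher in SF/SCL, where the share among all genes was 5.86%, and 1 was higher in LF/LCL (5.64% of all genes). The 2 groups did not overlap for 21 members (40.4%), 18 of them higher in SF/SCL and 3 higher in LF/LCL. The share without overlap was 30.1% among all genes, split as 15.1% and 15.0%. The median log2 fold change, always LF/LCL over SF/SCL, was -0.14 over the members and 0.01 over all genes. The median of the members was -0.073 without LF/LCL replicate 1 and -0.215 without LF/LCL replicate 2. Leaving out LF/LCL replicate 1 took the count of members at an unadjusted p under 0.05 from 9 to 1 and that of all genes from 1819 to 1233.

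**Figure D2:**
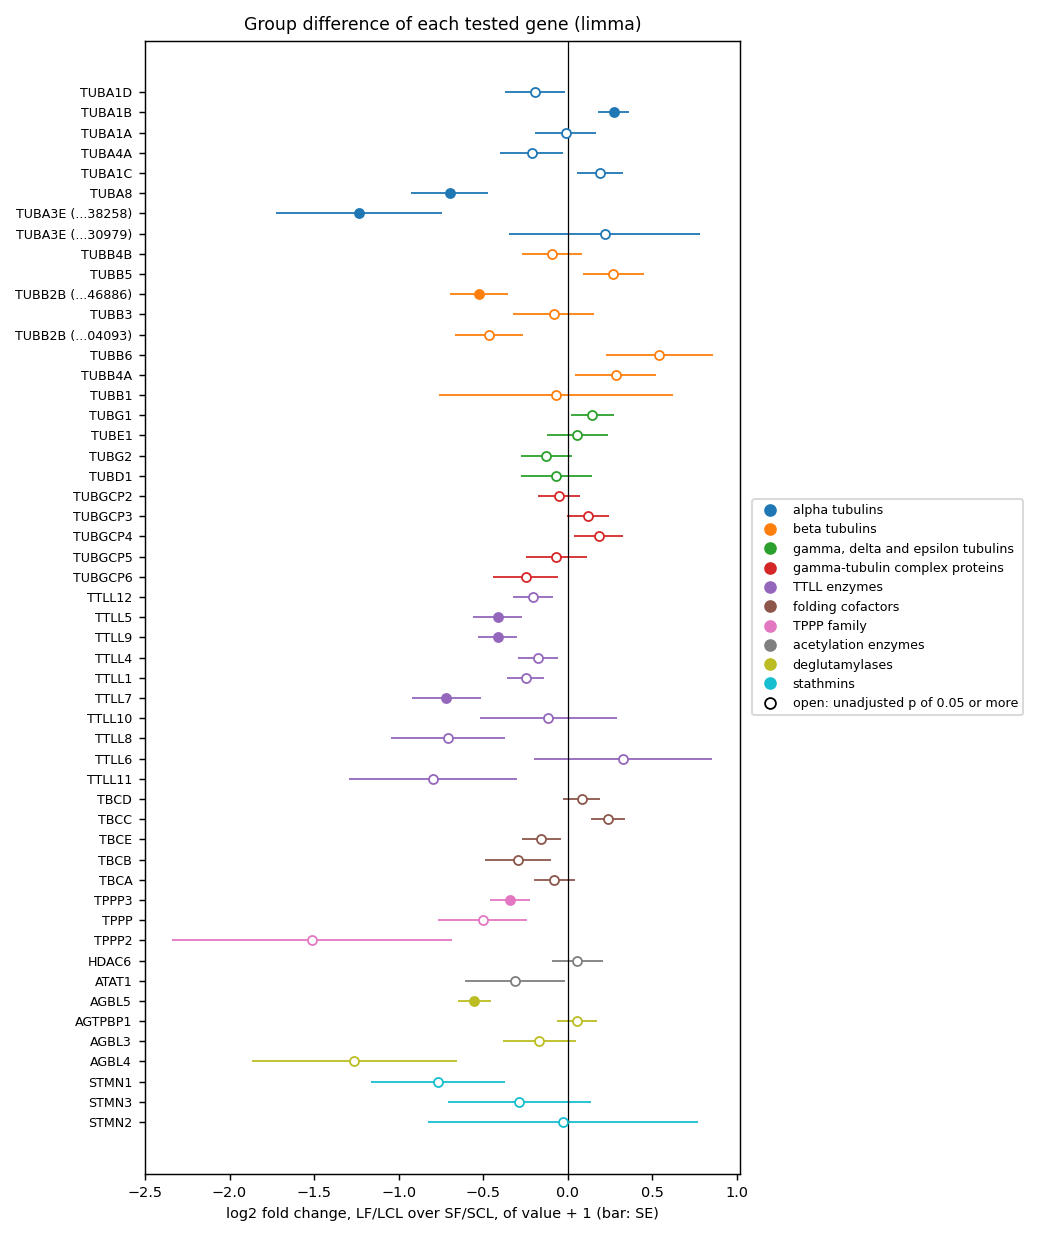
Log2 fold change of LF/LCL over SF/SCL with its standard error (horizontal axis, limma on value + 1) for the 52 tested members, coloured by role. Filled points are the 9 members with an unadjusted p under 0.05, of which TUBA1B alone lies to the right of 0.

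AGBL5 is a deglutamylase that removes the branch-point glutamate from modified tubulin. It had 1084 and 1074 normalized reads in the LF/LCL libraries and 1576, 1669 and 1510.0 in the SF/SCL libraries. The LF/LCL libraries nearly coincided and all SF/SCL libraries lay above them. The means were 1079 ± 6.53 (SD, n = 2) and 1585 ± 79.7 (SD, n = 3). The log2 fold change was -0.55 ± 0.10 (SE; unadjusted p = 0.00124 and adjusted p = 0.203 in limma). On the recovered reads, DESeq2 gave an adjusted p of 0.00175 (2.91% of all genes called), the edgeR exact test 0.0387 (2.12% called) and the edgeR quasi-likelihood test 0.225 (0% called). AGBL5 was the only member that DESeq2 or the exact test called. Its log2 fold change ran from -0.59 to -0.52 over 17 alternative fits. These fits reuse the same 5 libraries, so they are not independent evidence. AGBL5 was also singled out as the member with the smallest p in limma.

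None of the other deglutamylases had an unadjusted p under 0.05 in limma. AGTPBP1, which shortens glutamate chains, had 495 and 510.1 normalized reads in LF/LCL against 474, 509 and 469 in SF/SCL. These ranges overlapped, and the log2 fold change was 0.05 ± 0.12. The ratio of AGBL5 to AGTPBP1 within a library was 2.19 and 2.11 in LF/LCL against 3.33, 3.28 and 3.22 in SF/SCL. AGBL3 had a log2 fold change of -0.17 ± 0.22 (adjusted p = 0.820, limma) and overlapped between groups. AGBL4, at 3.52 to 16.3 normalized reads, lay lower in both LF/LCL libraries, with -1.26 ± 0.61 (adjusted p = 0.491, limma).

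Of the 10 tested members of the TTLL family, 9 had a lower mean in LF/LCL on the log2 scale, as did 7783 of the 15815 genes tested. The groups did not overlap for 7 of them, all higher in SF/SCL (15.1% of all genes). At an unadjusted p under 0.05 in limma there were 3, TTLL5, TTLL7 and TTLL9 (11.5% of all genes). The summed level of the 11 TTLL genes was 9074 and 9128 normalized reads in LF/LCL and 10942 to 11541 in SF/SCL. TTLL12 alone gave 3907 and 3325 of it in LF/LCL and 3958 to 4449 in SF/SCL. Over the tested TTLL members the log2 fold change had a median of -0.33.

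TTLL9, a member of the glutamylating branch, had 924 and 1095 normalized reads in LF/LCL against 1386, 1295 and 1340.4 in SF/SCL. All SF/SCL libraries lay above both LF/LCL libraries and close to one another. The means were 1009 ± 121 (SD, n = 2) and 1340.4 ± 45.6 (SD, n = 3), with a log2 fold change of -0.41 ± 0.11 (adjusted p = 0.312, limma). TTLL9 stands in a gene list that the study drew from these same libraries, so its direction here is not independent of that choice.

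TTLL5, a glutamylase, had 1916 and 2287 normalized reads in LF/LCL against 2746, 3175 and 2491 in SF/SCL. The nearest libraries of the groups, LF/LCL replicate 2 and SF/SCL replicate 3, were only a little apart. The log2 fold change was -0.41 ± 0.14 (adjusted p = 0.375, limma). TTLL7, which adds glutamate preferentially to beta tubulin, had 124 and 144 normalized reads in LF/LCL against 225, 194 and 247 in SF/SCL. Every SF/SCL library was higher. TTLL7 had a log2 fold change of -0.72 ± 0.20 (adjusted p = 0.318, limma).

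The remaining TTLL members with no overlap had smaller or noisier differences. TTLL1, the catalytic part of a polyglutamylase complex, had a log2 fold change of -0.25 ± 0.11 (unadjusted p = 0.0573). TTLL4, which starts glutamate chains, had -0.18 ± 0.12. TTLL12, with 3907 and 3325 normalized reads in LF/LCL against 3958, 4087 and 4449 in SF/SCL, had -0.21 ± 0.12, and LF/LCL replicate 1 lay just below the lowest SF/SCL library. The glycylase TTLL8 had 77.4 and 96.8 normalized reads in LF/LCL against 207, 115 and 120.2 in SF/SCL, with -0.71 ± 0.34. TTLL6 (0.33 ± 0.52), the glycylase TTLL10 (-0.12 ± 0.41) and TTLL11 (-0.79 ± 0.50) overlapped between groups.

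**Figure D3:**
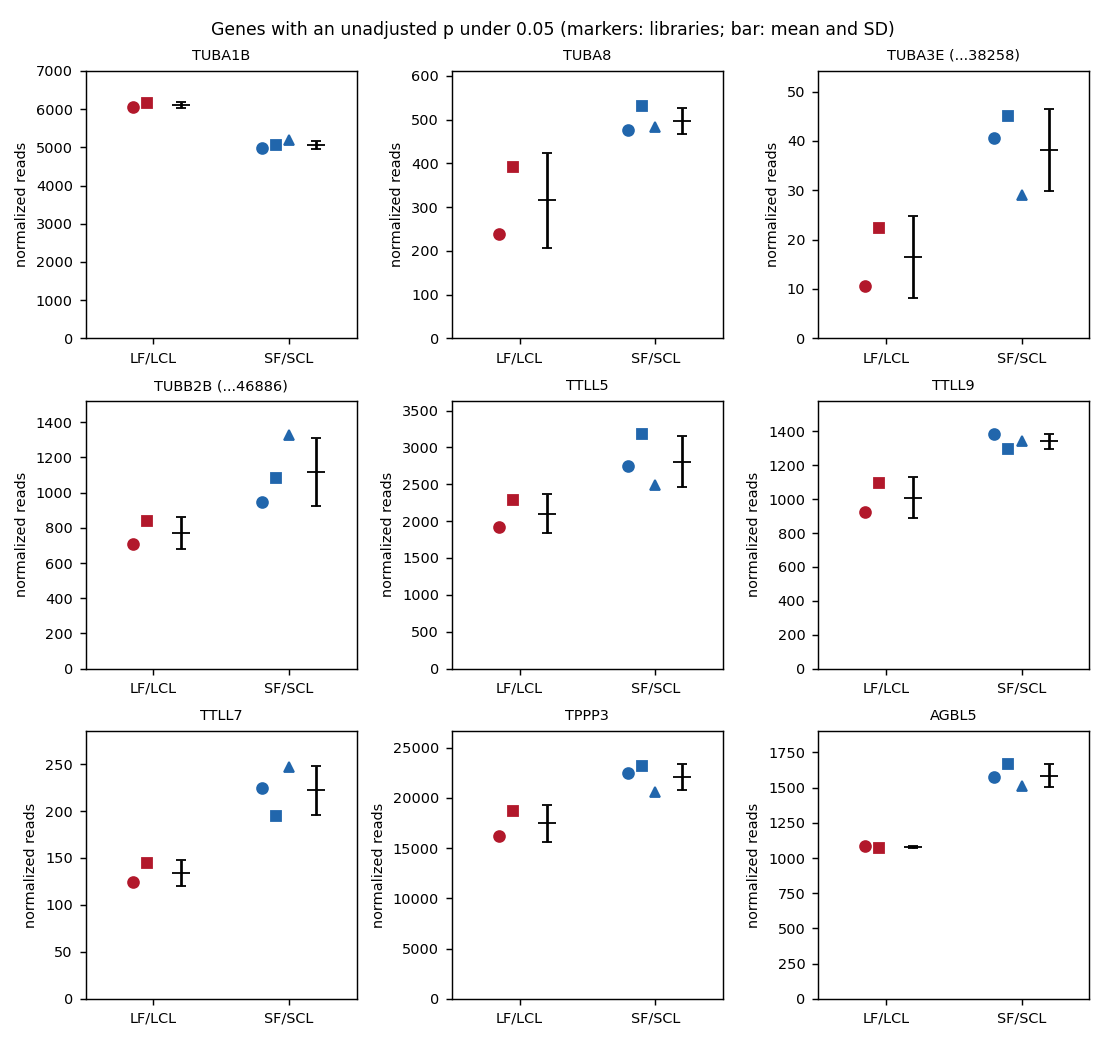
Normalized reads (vertical axis from 0) of the 9 members with an unadjusted p under 0.05, one marker per library (LF/LCL red, SF/SCL blue), with the mean and SD of each group beside them. The groups do not overlap in any panel, and the means run from 16.4 and 38.2 (TUBA3E) to 17457 and 22097 (TPPP3).

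TPPP3 belongs to a family of proteins that bind and bundle microtubules. It had 16173 and 18741 normalized reads in LF/LCL against 22495, 23167 and 20628 in SF/SCL. Both LF/LCL libraries lay below all SF/SCL libraries, and replicate 1 was the lowest. The means were 17457 ± 1816 (SD, n = 2) and 22097 ± 1316 (SD, n = 3), with a log2 fold change of -0.34 ± 0.12 (adjusted p = 0.377, limma). TPPP had -0.50 ± 0.26, with overlapping groups. TPPP2, at 1.94 to 18.2 normalized reads, had -1.51 ± 0.83, and SF/SCL replicate 3 held most of its reads. In limma neither had an unadjusted p under 0.05, while the edgeR exact test gave TPPP2 an unadjusted p of 0.0498.

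Among the alpha tubulins, 3 of the 8 tested members had an unadjusted p under 0.05 in limma (11.5% of all genes), TUBA1B in one direction and TUBA8 and TUBA3E in the other. The summed level of the alpha tubulins overlapped, at 32722 to 42157 normalized reads in LF/LCL and 36189 to 44399 in SF/SCL. TUBA1B, an alpha tubulin that most cell types use, had 6057 and 6172 normalized reads in LF/LCL against 4972, 5052 and 5181 in SF/SCL. The replicates of each group were tight and both LF/LCL libraries were higher. The means were 6115 ± 81.4 (SD, n = 2) and 5068 ± 106 (SD, n = 3), with a log2 fold change of 0.27 ± 0.09 (unadjusted p = 0.0253 and adjusted p = 0.369, limma). This gene also stands in a list that the study drew from these libraries.

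TUBA8, an alpha tubulin isotype, had 238 and 392 normalized reads in LF/LCL against 476, 530.0 and 484 in SF/SCL. The SF/SCL libraries were close together and the LF/LCL libraries far apart, with replicate 1 lowest. The log2 fold change was -0.70 ± 0.23 (adjusted p = 0.359, limma), and -0.34 without LF/LCL replicate 1. The symbol TUBA3E, an alpha tubulin best known from testis, was carried by 2 genes that may be near-identical copies and may have split or lost reads. ENSBTAG00000038258 had 10.6 and 22.3 normalized reads in LF/LCL against 40.5, 45.1 and 29.0 in SF/SCL, with a log2 fold change of -1.23 ± 0.49 (adjusted p = 0.420, limma), and -0.73 without LF/LCL replicate 1. ENSBTAG00000030979 overlapped between groups, with 0.22 ± 0.57.

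The alpha tubulin TUBA1D had 18652 and 25615 normalized reads in LF/LCL against 28326, 24427 and 22599 in SF/SCL. LF/LCL replicate 1 was the lowest library but LF/LCL replicate 2 lay within the SF/SCL range. The log2 fold change was -0.19 ± 0.18, and 0.04 without LF/LCL replicate 1. TUBA1A, the alpha tubulin prominent in neurons, had -0.01 ± 0.18, TUBA4A -0.21 ± 0.19 and TUBA1C 0.19 ± 0.14, all with overlapping groups.

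The beta tubulins had 1 of 8 members (12.5%) at an unadjusted p under 0.05 in limma, near the 11.5% of all genes, and their summed level overlapped (14790 to 17570 normalized reads in LF/LCL, 15445 to 18359 in SF/SCL). TUBB4B, a beta tubulin found in cilia and many other cells, had 9902 and 13222 normalized reads in LF/LCL against 13625, 12828 and 10451 in SF/SCL. Each group held both a low and a high library. For TUBB4B this gave a log2 fold change of -0.10 ± 0.18, and 0.11 without LF/LCL replicate 1.

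TUBB2B, a beta tubulin best known from developing neurons, was also the symbol of 2 genes. ENSBTAG00000046886 had 707 and 837 normalized reads in LF/LCL against 946, 1084 and 1326 in SF/SCL, with a log2 fold change of -0.53 ± 0.17 (adjusted p = 0.359, limma). ENSBTAG00000004093 had 386 and 439 in LF/LCL against 465, 556 and 709 in SF/SCL, with -0.46 ± 0.20 (unadjusted p = 0.0602). Both were higher in every SF/SCL library, and the second held between 0.491 and 0.546 of the level of the first in every library. They may be near-identical copies that share reads, so that the 2 entries they make among the members without overlap may not be independent. The summed neuron markers overlapped between groups, at 243 to 266 normalized reads in LF/LCL and 206 to 305 in SF/SCL. Of the 6 neuron markers tested, 3 did not overlap (30.1% of all genes). SNAP25 was lower in both LF/LCL libraries (31.0 and 42.2 normalized reads, against 108 to 173). PRPH (65.8 and 120.8, against 21.5 to 44.3) and SYT1 (42.6 and 49.3, against 5.37 to 21.8) were higher in both LF/LCL libraries. ELAVL4, UCHL1 and SYP overlapped. GAP43 and NEFL were at 0 in all libraries. The part of neurons in the TUBB2B values was not tested.

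The remaining beta tubulins overlapped between groups. TUBB5, a widely used beta tubulin, had a log2 fold change of 0.27 ± 0.18 (0.02 without LF/LCL replicate 1 and 0.52 without LF/LCL replicate 2), TUBB6 0.54 ± 0.32, TUBB4A 0.28 ± 0.24 and the neuronal TUBB3 -0.08 ± 0.24. For TUBB6 the high value came from LF/LCL replicate 1, with 576 normalized reads against 232 to 367 in the other libraries. The platelet tubulin TUBB1 was at 4.16 to 12.9 normalized reads.

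Gamma tubulin nucleates microtubules, and delta and epsilon tubulin serve the centrioles. None of these 4 members or of the 5 gamma-tubulin complex proteins had an unadjusted p under 0.05 in limma. TUBG1 had 491 and 508 normalized reads in LF/LCL against 446, 425 and 486 in SF/SCL. Both LF/LCL libraries were the higher ones, but by little against the spread (log2 fold change 0.15 ± 0.13). TUBG2 was slightly lower in LF/LCL (-0.13 ± 0.15), again without overlap, and TUBE1 (0.06 ± 0.18) and TUBD1 (-0.07 ± 0.21) overlapped. TUBGCP2 had 1860.0 and 1856 normalized reads in LF/LCL against 2029, 1687 and 2082 in SF/SCL, so that the SF/SCL libraries enclosed both LF/LCL libraries. Log2 fold changes of the complex proteins ran from -0.25 (TUBGCP6) to 0.18 (TUBGCP4).

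The folding cofactors bring alpha and beta tubulin together into a usable pair. None of the 5 had an unadjusted p under 0.05 in limma. TBCC, which triggers release of the finished pair, came nearest, at 951 and 918 normalized reads in LF/LCL against 771, 814 and 790 in SF/SCL. Both LF/LCL libraries were higher, with a log2 fold change of 0.24 ± 0.10 (unadjusted p = 0.0549 and adjusted p = 0.450 in limma, unadjusted p = 0.0464 in the edgeR quasi-likelihood test). TBCD had 1041 and 1122 normalized reads in LF/LCL against 983, 984 and 1101 in SF/SCL, which overlapped (0.08 ± 0.11). TBCE (-0.16 ± 0.11) and TBCA (-0.08 ± 0.12) were lower in both LF/LCL libraries by small amounts, and TBCB (-0.30 ± 0.20) overlapped.

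The acetylation enzymes overlapped between groups. HDAC6 had 763 and 666 normalized reads in LF/LCL against 693, 597 and 777 in SF/SCL (log2 fold change 0.06 ± 0.15). ATAT1 had -0.31 ± 0.30, with SF/SCL replicate 3 far above the other libraries at 367 normalized reads against 190.4 to 236.

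Stathmins bind free tubulin and keep microtubules dynamic. STMN1, which is high in dividing cells, had 494 and 398 normalized reads in LF/LCL against 471, 742 and 1232 in SF/SCL. SF/SCL replicate 1 lay between the LF/LCL libraries and replicate 3 was far above all others. Its log2 fold change was -0.77 ± 0.40 (adjusted p = 0.522, limma; DESeq2 gave an unadjusted p of 0.0321 and an adjusted p of 0.305), whereas the summed proliferation markers were higher in both LF/LCL libraries. STMN3 (-0.29 ± 0.42) and STMN2 (-0.03 ± 0.80) overlapped.

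Several members varied between libraries in the same way. In TUBA1D the order ran from LF/LCL replicate 1 through SF/SCL replicates 3 and 2 and LF/LCL replicate 2 to SF/SCL replicate 1. TUBA4A and TUBB4B had the same order. It was taken from TUBA1D, which is itself among the 97 of the 15815 genes tested (0.613%) that had it. Whether these tubulins share reads was not tested. Within a library TUBA4A was 0.124 to 0.133 of TUBA1D and TUBB4B 0.462 to 0.531 of it. The ratio of TUBA1B to TUBA1D was instead 0.325 and 0.241 in LF/LCL against 0.176, 0.207 and 0.229 in SF/SCL, so that the libraries of the groups were separate. LF/LCL replicate 1 was the lowest library for 20 of the 52 tested members (38.5%, against 21.5% of all genes) and the highest for 4. The spread within groups was ordinary: among members with a mean over 50 normalized reads the median SD on the log2 scale was 0.186 (46 members), and among all such genes 0.187 (13139 genes).

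**Figure D4:**
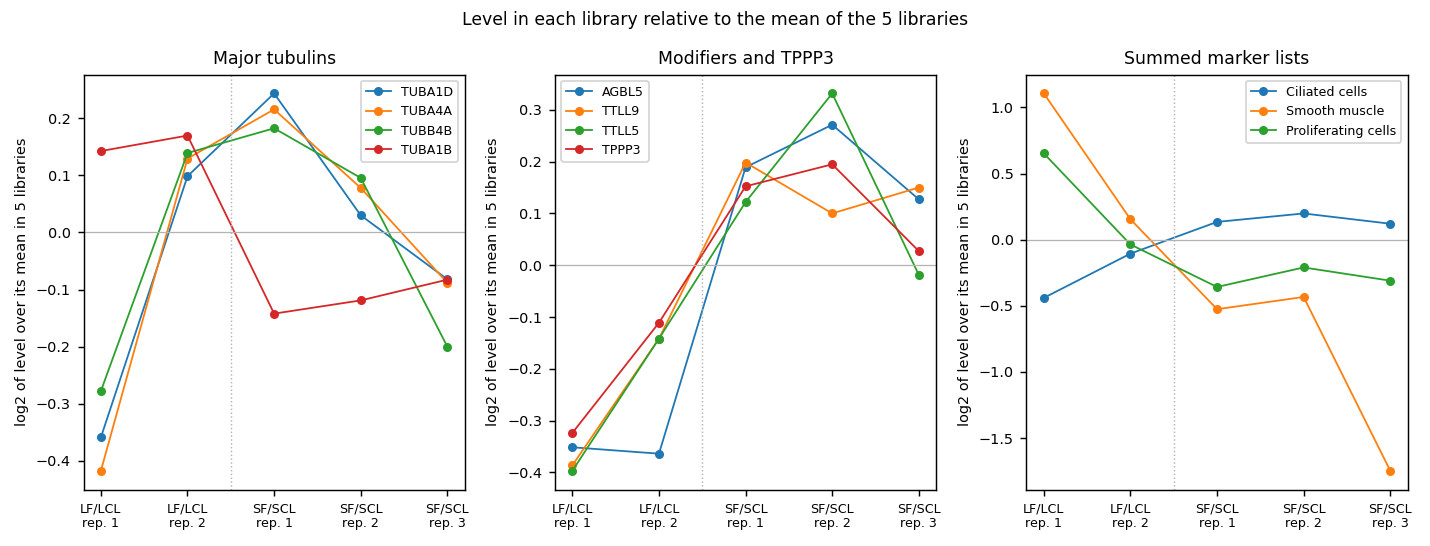
Log2 of the level in each library over the mean of the 5 libraries (vertical axis) for 4 abundant tubulins, for 4 members named for a group difference and for 3 summed marker lists; lines only join the points of one gene or list. TUBA1D, TUBA4A and TUBB4B move together with LF/LCL replicate 1 lowest, TUBA1B does not, and the ciliated and smooth muscle sums lie on opposite sides of 0.

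The ciliated cell markers moved with the groups in the same direction as AGBL5, TPPP3 and the TTLL enzymes. Of the 24 markers tested, 22 were lower in LF/LCL, as were 7783 of the 15815 genes tested. There were 15 markers without overlap, all higher in SF/SCL (15.1% of all genes). An unadjusted p under 0.05 in limma was found for 13, again all higher in SF/SCL (5.86% of all genes). The levels of the members were therefore also expressed per 1000 normalized reads of summed ciliated markers, a step chosen after seeing the data. On that scale AGBL5 was at 15.7 and 12.3 in LF/LCL against 15.3, 15.5 and 14.8 in SF/SCL. TPPP3 was at 234 and 215 against 219, 215.5 and 202.5. TTLL9 was at 13.4 and 12.6 against 13.5, 12.04 and 13.2, and TTLL5 at 27.8 and 26.3 against 26.7, 29.5 and 24.5. In these 4 genes the groups overlapped, and they also overlapped in both TUBB2B genes. The marker sum was itself lower in both LF/LCL libraries, so dividing by it raised LF/LCL relative to SF/SCL in every gene. Among all genes, the share without overlap and higher in SF/SCL went from 15.1% to 2.25%. The overlap on this scale is therefore not particular to these members.

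TUBA8 (3.45 and 4.50 in LF/LCL, 4.63 to 4.93 in SF/SCL), TTLL7 (1.80 and 1.66, against 1.81 to 2.42) and TUBA3E ENSBTAG00000038258 (0.153 and 0.256, against 0.284 to 0.419) were still higher in every SF/SCL library, although the nearest libraries were close. TUBA1B was at 87.7 and 70.9 in LF/LCL against 47.0 to 50.9 in SF/SCL. It was already higher in both LF/LCL libraries, so dividing by a sum lower in LF/LCL could not make its groups overlap. On this scale 26 of 52 members did not overlap (53.8% of all genes). Of these, 21 were higher in LF/LCL, where 51.5% of all genes lay, and 5 higher in SF/SCL (2.25% of all genes). The 5 were TUBA8, TTLL7, TUBA3E ENSBTAG00000038258, TPPP2 and AGBL4. TUBA3E, TPPP2 and AGBL4 had low levels, at 10.6 to 45.1, 1.94 to 18.2 and 3.52 to 16.3 normalized reads. With the geometric mean of the markers in place of their sum, of which CAPS alone gave 21.5%, 21 members did not overlap (49.5% of all genes), 16 of them with LF/LCL on top (47% of all genes) and 5 with SF/SCL (2.54%), and the 9 members lay on the same sides as with the sum.

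**Figure D5:**
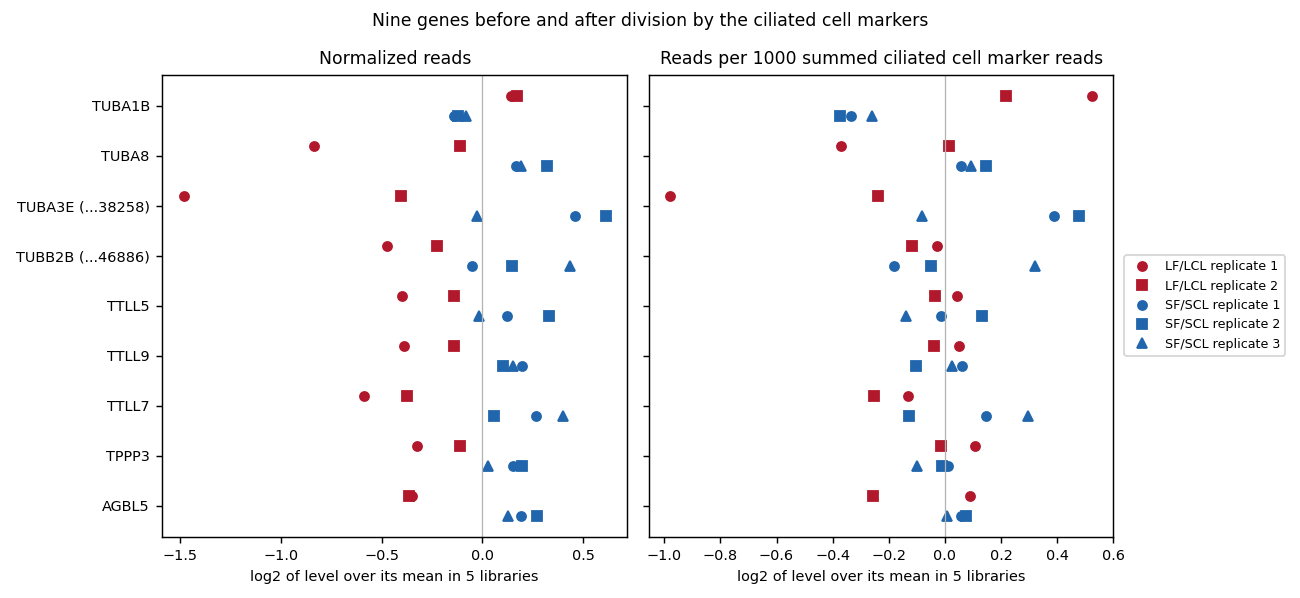
Log2 of the level over the mean of the 5 libraries (horizontal axis) for the 9 members with an unadjusted p under 0.05, as normalized reads on the left and per 1000 summed ciliated marker reads on the right. The red (LF/LCL) and blue (SF/SCL) markers are apart for all 9 on the left. On the right they mix for AGBL5, TPPP3, TTLL5, TTLL9 and TUBB2B. The ciliated sum used as divisor was itself lower in both LF/LCL libraries, which raises LF/LCL relative to SF/SCL on the right in every gene.

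Other genes of microtubule biology gave a background for the family. Of a list of 60 symbols (tubulin chaperones, microtubule-associated and severing proteins, and modifying enzymes outside the rule), 52 were found as 53 genes, and all 53 were tested. None had an adjusted p under 0.05 in limma, DESeq2, the edgeR exact test or the quasi-likelihood test. At an unadjusted p under 0.05 in limma there were 3 (5.66%, against 11.5% of all genes), all higher in LF/LCL: MAPT, the microtubule-associated protein tau (log2 fold change 0.76 ± 0.22), DCLK1, a microtubule-binding kinase (0.84 ± 0.28), and ARL2, a small GTPase that works with the folding cofactors (0.39 ± 0.13). MAPT is in a list the study took from these libraries. The groups did not overlap for 11 of the 53 genes (20.8%, against 30.1% of all genes), 6 of them with LF/LCL on top and 5 with SF/SCL. TTL, the ligase that puts tyrosine back on alpha tubulin, had 169 and 169 normalized reads in LF/LCL against 199, 135 and 157 in SF/SCL, which overlapped (0.07 ± 0.23).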

How the data were processed

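RNA from 5 ampulla samples (polyA libraries, read pairs) was sequenced by the authors. Per the labels and the study's methods, reads were aligned with TopHat2 2.0.8 and Bowtie2 2.1.0 to a cattle genome and counted over Ensembl genes with HTSeq 0.5.4p2. Use of strand in counting is not given in the sources used here, so antisense and overlapping genes are uncertain. The deposited unit is a normalized signal, reads divided by a DESeq 1.12.1 size factor of the library. Whole reads were recovered from its steps for 100% of nonzero values, within 0.01 read.

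The test was limma 3.58.1 (lmFit, eBayes with trend and robust) in R 4.3.3 on log2(value + 1) for 15815 genes with a mean over 5, all 5 libraries, two-sided, with no covariates and Benjamini-Hochberg adjustment over all genes tested at 0.05. Low genes have understated fold changes. Nothing in the labels beyond cow numbers describes a batch. The recovered reads were tested with edgeR 4.0.16 and DESeq2 1.42.0 as alternatives. The code was tested on simulated data. Members and lists were chosen with earlier results of these data known. Named were, per role, the up to 3 members with the highest mean, the 2 with the smallest p, and all with an unadjusted p under 0.05 or a call by any test; MAPT, DCLK1 and ARL2 had the smallest p of their list. The other members and TTL were named after their values were seen. Every column of the table was mapped to a sample. P-values rest on 2 and 3 cows.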

Additional observations from a re-analysis of the deposited data

How the results depend on the processing

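No paired analysis was possible because the sample names carry cow numbers that the groups do not share. Over 17 alternative fits, the count of members with an adjusted p under 0.05 was 0 except for 1 (AGBL5, higher in SF/SCL) in DESeq2 and 1 in the edgeR exact test, with adjusted p of 0.00175 and 0.0387. Those tools called 460 (222 higher in LF/LCL, 238 higher in SF/SCL) and 336 (184 and 152) of all genes, where limma, limma-voom and the quasi-likelihood test called 0. At an unadjusted p under 0.05, limma found 1819 genes, the quasi-likelihood test 1843 and limma-voom 1768. With library size scaling that split went from 892 and 927 to 745 and 1140, and the median of all genes to -0.03. The count of members at an unadjusted p under 0.05 was 7 to 11 in the fits on all libraries (9 in limma, 9 in the quasi-likelihood test, 8 in limma-voom). It was 1 to 12 when a library was left out, with 1 lacking LF/LCL replicate 1 and 12 lacking LF/LCL replicate 2. The count without overlap was then 26 to 33 (33 lacking LF/LCL replicate 2), and the microtubule genes outside the rule at an unadjusted p under 0.05 were 1 to 4 (1 lacking LF/LCL replicate 2). The cause of these shifts was not tested, apart from the smaller groups, which make non-overlap easier. Without an LF/LCL library, the lone one left was assumed to vary like the others. Leaving out single libraries turned the sign of 7 members with no call: the log2 fold change ran from -0.42 to 0.035 for TUBA1D, -0.15 to 0.13 for TUBA1A, -0.30 to 0.11 for TUBB4B, -0.17 to 0.28 for TUBE1, -0.15 to 0.0057 for TUBGCP2, -0.042 to 0.16 for HDAC6 and -0.75 to 0.50 for STMN2. Of the members named by the rule, no other changed sign in any fit. Genes with few reads, such as TUBA3E, TPPP2, AGBL4 and STMN2, were limited by depth, and the cows were few.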
